A study of Mus musculus with 28 samples.

Results

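The genes described here were followed through all tables of the series by gene symbol: the 6 H3K4 methyltransferases Kmt2a, Kmt2b, Kmt2c, Kmt2d, Setd1a and Setd1b, the 2 H3K4 demethylases Kdm5a and Kdm5b, and the 2 H3K27 demethylases Kdm6a and Kdm6b. They are 10 of the 18274 gene symbols that occur in any of the tables. All peaks annotated to them were taken. These were 14 of 21390 H3K4me3 peaks, 5 of 6789 RNA polymerase II (Pol2) peaks, 1 of 67985 H3K27me3 peaks and 4 of 7849 listed ATAC-seq peaks. None of the 10 genes is among the 597 genes of the RNA table. The cells were freshly isolated hair follicle stem cells of mice labelled with the strain 132-C67BL/6J. Skin was digested with trypsin, and cells positive for both CD34 and α6 integrin were sorted by flow cytometry. The young mice were 6 months old and the old mice 24 months, and no genotype or treatment other than age separates the groups in the labels. RNA was measured in 3 samples per age, ATAC-seq in 4, H3K27me3 in 3, and H3K4me3 and Pol2 in 2 each, 28 libraries in all, which the series design calls biological replicates. The ChIP-seq labels say only young or old, and their ages are from that design.

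Trimethylation of histone H3 at lysine 4 (H3K4me3) marks the starts of active and poised genes, and trimethylation at lysine 27 (H3K27me3) marks genes held silent by Polycomb. Methyltransferases of the Kmt2 and Setd1 families write H3K4 methylation as the catalytic subunits of COMPASS complexes, and Kdm5 enzymes erase it. Kdm6 enzymes erase H3K27me3, and Kdm6a is also a subunit of the complexes built around Kmt2c and Kmt2d. A promoter that carries both marks is called bivalent, and the series title names such promoters as its subject.

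ATAC-seq is the only assay with values per library. Young libraries held between 2456110 and 2773284 counts in its peaks and old ones between 1572998 and 1946804. Since the table lists selected peaks, these sums are not library depths. The depth of the other libraries is unknown. The labelled cell type was checked against its markers: 9 of 9 stem cell markers, among them Cd34, Itga6, Krt15, Sox9 and Lhx2, had an H3K4me3 peak within 1 kb of a transcript start, and 8 of 9 had a Pol2 peak there. Of markers of other cells, 0 of 5 immune, 1 of 3 endothelial, 3 of 5 fibroblast, 2 of 4 melanocyte and 2 of 4 interfollicular genes had an H3K4me3 promoter peak, and none of these genes had a Pol2 promoter peak. All samples are bulk, so that fewer marked cells and less mark per cell cannot be told apart.

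RefSeq promoter windows (GRCm38.p6) were at hand for 6 of the 10 genes, each holding 250 bases before a transcript start. Of these, 4 that differ widely in base composition are printed. They were chosen with the log2 fold changes of the H3K4me3 peaks at their starts known, which lie between −1.61 and −1.46. Kmt2d and Kdm5b, not printed, lie outside that range at −1.39 and −1.44. The choice therefore cannot show whether fold change goes with base composition. For Kmt2c the peak used, at −1.53, shares no base with the printed window. The H3K4me3 peak that overlaps the Kmt2c window had −1.73. Capitals mark GC boxes (GGGCGG or CCGCCC, the site read by Sp and KLF factors) and 1 E-box (CACGTG). The windows are chr7:127777139-127777388 on the plus strand for Setd1a, chrX:18162325-18162574 on the plus strand for Kdm6a, chr9:44881290-44881539 on the minus strand for Kmt2a and chr5:25498784-25499033 on the minus strand for Kmt2c.
Setd1a: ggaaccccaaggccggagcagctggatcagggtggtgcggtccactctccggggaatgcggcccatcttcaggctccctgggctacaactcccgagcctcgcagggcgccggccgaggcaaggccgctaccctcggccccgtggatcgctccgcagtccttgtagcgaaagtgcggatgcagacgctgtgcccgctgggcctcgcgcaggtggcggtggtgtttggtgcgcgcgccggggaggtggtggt
Kdm6a: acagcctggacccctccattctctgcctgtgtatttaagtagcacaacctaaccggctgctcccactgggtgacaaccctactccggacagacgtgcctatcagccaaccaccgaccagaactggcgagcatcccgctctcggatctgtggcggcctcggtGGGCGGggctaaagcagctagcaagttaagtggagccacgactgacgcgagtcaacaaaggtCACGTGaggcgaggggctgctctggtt
Kmt2a: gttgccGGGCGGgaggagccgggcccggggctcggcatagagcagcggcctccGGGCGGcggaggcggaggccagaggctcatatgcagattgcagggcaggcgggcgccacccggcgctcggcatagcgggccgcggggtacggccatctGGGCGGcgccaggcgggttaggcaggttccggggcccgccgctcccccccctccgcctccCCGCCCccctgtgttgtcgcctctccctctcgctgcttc
Kmt2c: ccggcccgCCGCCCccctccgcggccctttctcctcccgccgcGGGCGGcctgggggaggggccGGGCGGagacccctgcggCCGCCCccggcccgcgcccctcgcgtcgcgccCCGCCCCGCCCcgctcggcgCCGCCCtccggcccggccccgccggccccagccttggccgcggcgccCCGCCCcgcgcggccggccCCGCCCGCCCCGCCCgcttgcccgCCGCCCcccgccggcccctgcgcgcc

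The Kmt2c window held 48 CpG dinucleotides and 12 GC boxes, some of them overlapping, and 91.6% of its bases were G or C. Kmt2a had 29 CpGs and 4 GC boxes, Setd1a 25 CpGs and no GC box, and Kdm6a 15 CpGs, 1 GC box and the E-box. The windows not printed were those of Kmt2d, with 26 CpGs and 4 GC boxes, and Kdm5b, with 13 CpGs and 1 GC box. The median of all 32841 mouse promoter windows is 6 CpGs, so all 6 genes were richer in CpG than the typical promoter. A GC box was present in 5 of the 6 windows, against 32.7% of all windows, and an E-box in 1 of 6, against 6.02%. Searched on both strands, the letters CCGGAAG (ETS), CCAAT (the CCAAT box), TATAAA (the TATA box) and TGANTCA (AP-1) were in none of the 6. Of all windows, 6.91% hold the ETS letters, 33.9% the CCAAT box, 12.4% the TATA box and 6.75% the AP-1 letters. The shares are over windows of any base composition (median 52.4% G or C), and no set matched for composition was read. A match is only a run of letters and does not show a bound factor.

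H3K4me3 over the starts of the 10 genes was lower in old cells at every one, to between 29.9% and 39.0% of the young level. For each gene a single H3K4me3 peak over a transcript start of that gene was taken. Where several peaks qualified, it was the peak with the highest mean level. At Kdm6b this left out a narrow peak over an internal start, which is given below. For Kmt2c and Kdm6a the start covered is a start the authors annotated. The peaks taken for these 2 genes begin 86 bp and 285 bp downstream of the outermost RefSeq start. For Setd1b and Kdm5a the authors annotate the peak taken to a neighbour, Rhof and Ccdc77, whose starts it also covers, so these values belong to both genes. All 10 start peaks had a false discovery rate (FDR) under 0.05 in the authors' deposited table. That threshold says little here, because 94.3% of all 13505 promoter peaks within 1 kb of a start passed it downward and 0.037% upward. Levels are the authors' mean normalized reads of 2 samples per age, divided here by the peak's width in kb, which allows comparison between genes, and log2 fold changes are old over young. Distances are the authors', to the start of the transcript they annotated, unless another start is named. For Kdm6b that start is an internal one. Differences in loss between the genes were not tested, since only group means are deposited.

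Among the methyltransferases, Setd1a and Setd1b, whose enzymes lay down much of the H3K4me3 of active promoters, had start peaks of unlike density with log2 fold changes close together. At Setd1a (chr7:127774295-127782306) the authors' mean was 515 reads per kb in young and 179 in old cells, a log2 fold change of −1.51 in the authors' deposited table (FDR 3.63e-07). At Setd1b (chr5:123132510-123149356) it was 1117 and 366, with −1.61 in the authors' deposited table (FDR 1.14e-06). This peak is 16.8 kb wide, the widest of the 10, and 99.4% of promoter peaks were no wider. A further 2 H3K4me3 peaks, smaller, are annotated to Setd1b itself. The first overlaps an exon 6.42 kb inside the gene (chr5:123149379-123150981) and had −2.33 in the authors' deposited table (FDR 2.11e-07), and the other lies in an intron at 8.16 kb and had −1.17 (FDR 0.0201).

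Kmt2a and Kmt2b are the mammalian relatives of fly Trithorax, which keeps developmental genes active, and Kmt2b is known for marking bivalent promoters. The Kmt2b start peak (chr7:30586267-30590019) had the largest log2 fall of the 10, close to that of Kdm6b (−1.73). It went from 799 to 241 reads per kb, or −1.74 in the authors' deposited table (FDR 1.44e-07). At Kmt2a (chr9:44876337-44884544) the level was 606 in young and 222 in old cells, with −1.46 in the authors' deposited table (FDR 1.1e-06). A second Kmt2a peak in an intron, 5.15 kb from the start, had −1.09 in the authors' deposited table (FDR 0.00555).

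Kmt2c and Kmt2d mainly monomethylate H3K4 at enhancers. Their start peaks were of similar density and very unlike width. Kmt2c (chr5:25495860-25498769) had the narrowest peak of the 10, 2.91 kb, and fell from 866 to 302 reads per kb, a log2 fold change of −1.53 in the authors' deposited table (FDR 1.1e-06). A faint peak 2.87 kb downstream of the Kmt2c start was at 145 and 100, and its −0.54 in the authors' deposited table was not called (FDR 0.283). Upstream of Kmt2c the mark continues in a second peak (chr5:25498959-25501733) over a start without a symbol on the opposite strand, which fell from 825 to 249, with −1.73 in the authors' deposited table (FDR 1.82e-07). The gap between the 2 peaks is 189 bp long and takes in 175 of the 250 bases of the printed Kmt2c window. Kmt2d (chr15:98866505-98877582) had an 11.1 kb peak that fell from 798 to 305, with −1.39 in the authors' deposited table (FDR 4.38e-06).

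Of the H3K4 demethylase genes, Kdm5a had the smallest log2 loss of the 10. Its start peak (chr6:120361074-120366826) fell from 712 to 277 reads per kb, or −1.36 in the authors' deposited table (FDR 3.69e-06). The only peak annotated to Kdm5a itself lies 2.74 kb inside the gene, was at 109 and 102 reads per kb, and was not called (−0.09 in the authors' deposited table, FDR 0.857). Taken by annotation alone, Kdm5a would therefore be the 1 gene of the 10 with no called loss. Kdm5b (chr1:134554073-134564981) had a 10.9 kb peak that fell from 654 to 241, with −1.44 in the authors' deposited table (FDR 3.44e-06).

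The H3K27 demethylase genes both had larger log2 falls than the 2 H3K4 demethylase genes. Kdm6b, which many stress and differentiation signals induce, had the densest start peak of the 10, 16.1 kb wide (chr11:69406907-69422981). It went from 1272 to 384 reads per kb, or −1.73 in the authors' deposited table (FDR 2.94e-07), and in young cells 99.4% of promoter peaks were no denser. Kdm6a on the X chromosome (chrX:18161147-18165895) fell from 610 to 201, with −1.61 in the authors' deposited table (FDR 5.79e-07). A narrow peak at an internal Kdm6b transcript start (chr11:69403921-69404342) is listed at 133 reads per kb in young cells, while the old value stands at the lowest level of the table, so its fold change of −5.94 in the authors' deposited table is no measured bound.

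**Figure D1:**
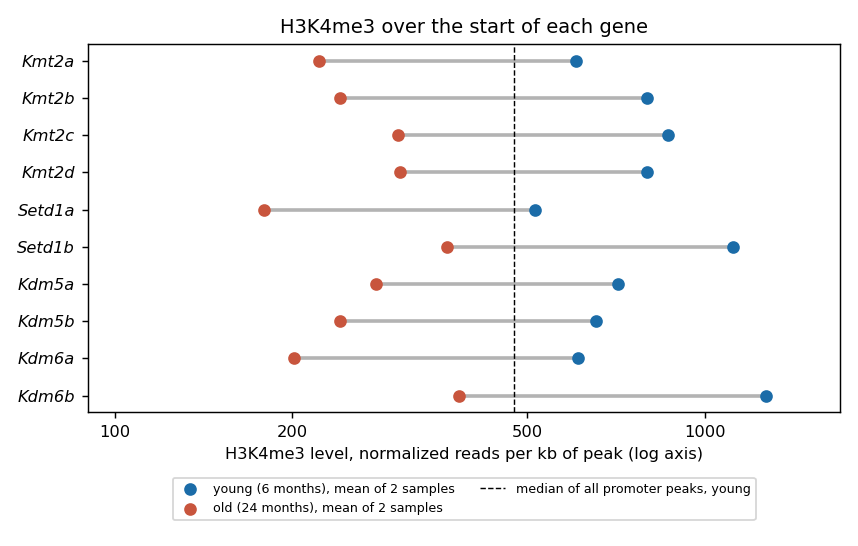
H3K4me3 over the start of each gene, in the authors' mean normalized reads per kb of peak (log axis), for young (blue) and old (red) cells, 2 samples each; the deposited means carry no error. All 10 old values lie between 179 and 384, left of the dashed median of all promoter peaks in young cells (476), and all 10 young values lie right of it. Promoter peaks as a whole also fell (median log2 fold change −1.42). The line is for young cells only and is no reference for the old values.

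Set against other promoters, the genes were within the general fall. The median log2 fold change was −1.52 over the 10 start peaks, from −1.74 to −1.36, and −1.42 over all promoter peaks, with quartiles of −1.57 and −1.28. Of the 10 start peaks, 6 lay between these quartiles, and the other 4 (Kmt2b, Kdm6b, Setd1b and Kdm6a) were below both. By role, the median was −1.52 for the 6 methyltransferases, −1.40 for the 2 H3K4 demethylases and −1.67 for the 2 H3K27 demethylases. In young cells most of these promoter peaks were wide and dense. Of the 10, 9 were wider than the median promoter peak of 3.73 kb, 6 were among the widest 10%, and all 10 had more reads per kb than the median of 476. Over all 14 peaks annotated to the genes, 12 were called lower and 0 higher, against 79.1% of all H3K4me3 peaks called lower and 0.281% higher. The median log2 fold change of the 14 was −1.48. Relative to the median of all peaks, −1.37, the median of the 14 peaks was −0.11. Whether the scaling of the libraries has a part in the shared shift was not tested.

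Pol2 peaks were found in the start domains of 5 of the 10 genes, Setd1a, Setd1b, Kdm5a, Kdm6a and Kdm6b, but not in those of Kdm5b or the 4 Kmt2 genes. Among all H3K4me3 promoter peaks 24.5% overlap a Pol2 peak by at least 1 bp. That share is over peaks of any width, while 6 of the 10 start domains are among the widest 10%. Whether width has a part in the difference was not tested. By annotation 3 genes had Pol2 peaks, and 4 of their 5 peaks were called lower in old cells and 0 higher, against 52.9% of all Pol2 peaks called lower and 0.0442% higher. The nearest Pol2 peak to a Kmt2 start lies 216 bp upstream of Kmt2c (chr5:25499071-25499736), at the start without a symbol on the opposite strand. It fell from 575 to 86.6 reads per kb, with −2.73 in the authors' deposited table (FDR 0.00379). Kmt2a, Kmt2b, Kmt2d and Kdm5b had H3K4me3 at their starts and no listed Pol2 peak within 1 kb.

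Setd1a had the largest log2 loss of Pol2. Its peak over the start (chr7:127776277-127777746) went from 273 reads per kb in young to 31.9 in old cells, 11.7% of the young level, with −3.09 in the authors' deposited table (FDR 0.00103). Kdm6a (chrX:18162045-18164043) went from 315 to 47.2, with −2.74 in the authors' deposited table (FDR 0.00207). Both peaks contain the promoter windows printed for these genes. The genes have 3 Pol2 promoter peaks within 1 kb of a start, of which these 2 were called lower and 0 higher, against 79.1% of all 3743 Pol2 promoter peaks called lower and 0 higher. With a median of −2.28 over all of them, the peaks of Setd1a and Kdm6a lay below it and the third, at an internal start of Kdm6b, above it at −1.05 in the authors' deposited table.

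Kdm6b carried 3 Pol2 peaks along its length, with unlike log2 fold changes. The one over the outermost RefSeq start (chr11:69417435-69420583) fell from 611 to 142 reads per kb, with −2.11 in the authors' deposited table (FDR 0.00571). The one that begins 8.23 kb downstream of that start (chr11:69406260-69412141) fell from 426 to 116, with −1.87 in the authors' deposited table (FDR 0.0163). The third, over an internal transcript start nearer the 3′ end (chr11:69399890-69404406) and a promoter peak by annotation, was at 287 and 139 reads per kb and was not called (−1.05 in the authors' deposited table, FDR 0.259). The differences between these 3 peaks were not tested, since the table gives no values per sample.

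At Kdm5a the Pol2 peak over the start it shares with Ccdc77 (chr6:120363338-120364722) fell from 519 to 145 reads per kb, with −1.83 in the authors' deposited table (FDR 0.0275). In the Setd1b domain a 6.21 kb Pol2 peak (chr5:123135732-123141939) fell from 245 to 55.2, with −2.15 in the authors' deposited table (FDR 0.00662). It ends 101 bp before the Setd1b start and is annotated to a gene without a symbol, so it cannot be assigned to Setd1b. Over the 5 annotated peaks the median log2 fold change was −2.11, against −1.72 over all Pol2 peaks, which leaves −0.39 relative to that shift. Of the 5, 3 are promoter peaks within 1 kb of a start, and over all such Pol2 peaks the median was −2.28. These 3 had −3.09 (Setd1a), −2.74 (Kdm6a) and −1.05 (Kdm6b) in the authors' deposited table, on both sides of that median. The median of the 5 also takes in Kdm6b peaks outside that class, so it was not set against −2.28.

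**Figure D2:**
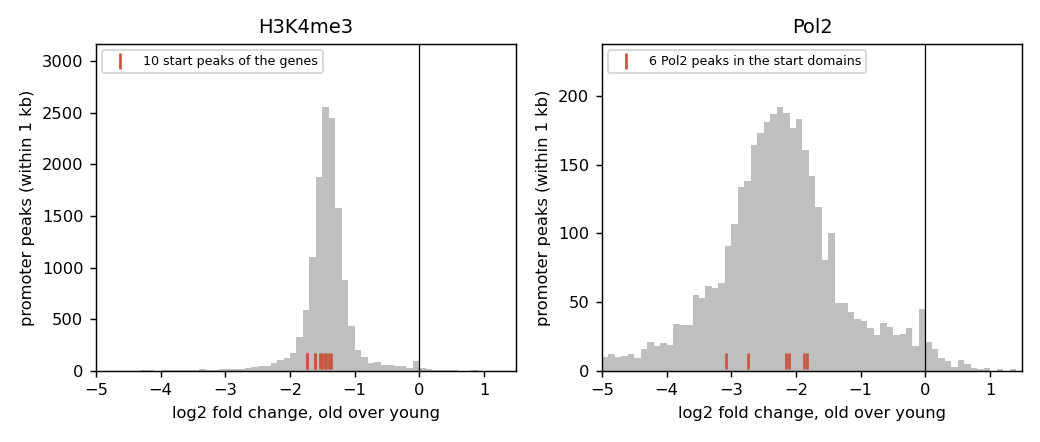
Log2 fold changes, old over young, of all promoter peaks within 1 kb of a start (grey bars, number of peaks per 0.1) for H3K4me3 and Pol2, from the authors' deposited table of each. Red ticks mark the 10 H3K4me3 start peaks (−1.74 to −1.36) and the 6 Pol2 peaks in the start domains (−3.09 to −1.83, of which 2 at Kdm6b are not promoter peaks by annotation); both sets lie within the bulk of the grey bars. The axis ends at −5 and 1.5, and peaks beyond it are not drawn.

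H3K27me3 peaks met the start domain of 1 of the 10 genes, Kmt2a, and only at its edge. The 1 peak annotated to the 10 genes lies 3.15 kb upstream of Kmt2a (chr9:44884447-44890829) and was at 61.2 reads per kb in young and 67.0 in old cells. Its log2 fold change of 0.13 in the authors' deposited table was not called (FDR 0.807), and 0 of 1 compares with 5.26% of all H3K27me3 peaks called, 2.6% lower and 2.66% higher. The median over all H3K27me3 peaks was 0.12. The peak meets the Kmt2a H3K4me3 domain over 98 bp, 1.19% of that domain. By the rule of at least 1 bp, 1 of the 10 start peaks thus overlaps H3K27me3, and with a rule of 50% of the H3K4me3 peak none does, against 15.1% and 9.13% of all H3K4me3 promoter peaks. At Kmt2a the 2 marks thus stood side by side, and the other 9 genes have no H3K27me3 peak in the table.

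ATAC-seq peaks, listed only where the authors' selection on age was met, fell to 3 of the 10 genes. Counts were compared with edgeR's quasi-likelihood test over all 7849 listed peaks, without scaling, as the authors' own ratios are. A Kdm6b peak (chr11:69413951-69414350) lies 278 bp before the internal start, as a promoter peak by annotation, and 6.02 kb downstream of the outermost RefSeq start. It had 154, 246, 240 and 227 counts in young replicates 1 to 4 and 100, 90, 137 and 145 in old replicates 1 to 4. Every old library was below every young one. The means were 217 ± 42.6 and 118 ± 27.1 (SD, n = 4 each), a log2 fold change of −0.88 (edgeR adjusted p 0.0281).

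A peak 4.38 kb upstream of Kdm5b (chr1:134555101-134555800), inside the H3K4me3 domain of that gene, had 458, 484, 449 and 447 counts in young and 294, 291, 243 and 371 in old libraries. Again the groups did not overlap, and the young libraries were close together. The means were 460 ± 17.0 and 300 ± 52.9 (SD, n = 4 each), with −0.62 (edgeR adjusted p 0.0304). Of all listed peaks 35.8% had every old library below every young one, and 46.4% were called lower (4.88% had every old library above every young one), so 2 of 4 peaks called lower is close to the background.

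At the Kmt2a start (chr9:44880701-44881250) the counts were 241, 457, 316 and 347 in young and 231, 207, 318 and 205 in old libraries. The groups overlapped. With means of 340 ± 89.7 and 240 ± 53.2 (SD, n = 4 each) the log2 fold change was −0.50 and did not pass (edgeR adjusted p 0.0782). The fourth peak is annotated to Kdm6b but lies 38.7 kb upstream of the internal start, in an exon of Dnah2, a dynein gene of cilia (chr11:69452351-69452750). Its counts were 91, 81, 186 and 151 in young and 178, 116, 214 and 278 in old libraries, higher on average in old cells but overlapping. The means were 127 ± 49.9 and 196 ± 67.8 (SD, n = 4 each), with 0.63 (edgeR adjusted p 0.0870), and 5.43% of listed peaks were called higher.

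These 4 results turn on the scaling. With TMM scaling, which centres the listed peaks and moves the median peak by 0.59 on the log2 scale, the Kdm6b peak at the internal start had −0.26, Kdm5b −0.01 and Kmt2a 0.09 (all edgeR adjusted p 1). The peak in Dnah2 had 1.26 and was then the only one called (edgeR adjusted p 0.00867), when 0.701% of all listed peaks were called lower and 13.9% higher. Without scaling, the call of that Kdm6b peak was lost without young replicate 2, young replicate 3 or old replicate 2 (highest edgeR adjusted p 0.0563), and the Kdm5b call without any of these or old replicate 3 (highest edgeR adjusted p 0.0693). The peaks were listed because they differed between these same libraries, so the adjusted p-values rank them and do not bound false calls.

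**Figure D3:**
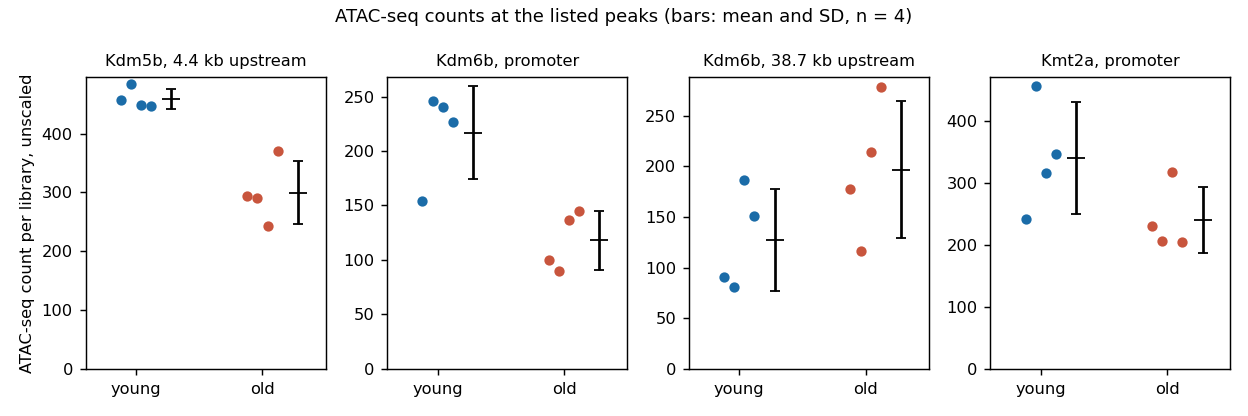
ATAC-seq counts per library, unscaled, at the 4 listed peaks of Kdm5b, Kdm6b and Kmt2a; points are libraries, with the mean and SD beside them (n = 4 per age), and each panel has its own axis from 0. Young and old libraries do not overlap at the Kdm5b peak and the Kdm6b promoter peak (internal start), and overlap at the other 2 peaks.

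RNA of the 10 genes was not among the differences the authors listed. Their table holds 597 genes with an adjusted p up to 0.1, of which 56.8% were under 0.05, and 0 of the 10 genes are in it. No level, direction or interval for their transcripts can be given from it. A gene's absence does not show equal RNA at both ages.

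Another 42 genes of H3K4 and H3K27 methylation were read in the same tables. H3K4me3 peaks were annotated to 39 of them and all 39 had at least 1 peak called lower and none higher. By peaks, 51 of 63 (81.0%) were called lower, beside 79.1% of all H3K4me3 peaks, and 45 of 48 promoter peaks (93.8%), beside 94.3%. The median was −1.46 at their promoter peaks and −1.42 over all promoter peaks. The largest losses in the authors' deposited table were −2.34 at a distal peak of Rcor1, a corepressor partner of the demethylase Kdm1a, −1.92 at the promoter of Men1, the menin subunit of Kmt2a and Kmt2b complexes, and −1.81 at that of Epop, a Polycomb cofactor. The smallest called losses in the authors' deposited table were −1.20 at Smyd3, −1.17 in an intron of Ezh1 and −1.05 near Wdr5, a core COMPASS subunit. Each of the 4 core subunits (Wdr5, Rbbp5, Ash2l and Dpy30) had a peak called lower, with a median of −1.32 at their promoter peaks. By peaks, 5 of 7 (71.4%) were called lower, and 4 of 5 promoter peaks (80%), beside the same 79.1% and 94.3%.

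Pol2 peaks were annotated to 20 of the 42 genes, 18 with a called loss and none with a gain. By peaks, 19 of 32 (59.4%) were called lower, beside 52.9% of all Pol2 peaks, and 19 of 27 promoter peaks (70.4%), beside 79.1%. In the authors' deposited table Ezh2, the main H3K27 methyltransferase, had −4.86 and Phf19, a Polycomb accessory subunit, −4.26, while at Epop the old value stood at the table's lowest level. The smallest called losses in the authors' deposited table were −1.89 at Kmt2e, −1.78 at Jarid2 and −1.73 at Kdm1a. H3K27me3 peaks belonged to 6 of the 42 genes, and 5 of their 80 peaks were called, 2 lower and 3 higher, when 5.26% of all H3K27me3 peaks were. In the authors' deposited table Jarid2, a Polycomb cofactor gene, had 2 lower peaks inside the gene (50.0% and 58.6% of the young level) and a higher one far upstream (log2 fold change 1.62), and distal or intronic peaks rose at Smyd2 (2.05) and Smyd1 (1.34).

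In ATAC-seq 6 of the 42 genes had 7 listed peaks, all with lower means in old cells. Without scaling 5 were called lower with edgeR (FDR under 0.05), at the Polycomb accessory gene Aebp2 (−1.01), Jarid2 (−1.58), Kmt2e (−0.52) and 2 peaks in an intron of the methyltransferase gene Smyd3 (−0.74 and −0.87). Of all listed peaks, which were selected for differing with age, 46.4% were called lower. With TMM scaling 0 of the 7 were, and 0.701% of all listed peaks. Leaving out old replicate 3 reduced the 5 to 3, without both Smyd3 peaks. In the RNA table only Phf1, a Polycomb accessory gene, is listed, at −0.63 in the authors' deposited table (adjusted p 0.0246 there).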

How the data were processed

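Per the submitters' processing notes, the tools named for RNA are STAR 2.5.2b, featureCounts and DESeq2 1.22.2 (build GRCm38.p5), for ATAC-seq BWA 0.7.12, and for ChIP-seq BWA 0.7.15, MACS2 2.2.7.1 and DiffBind 2.14.0 (both GRCm38). Per the file headers, the deposited RNA table gives a mean normalized signal, log2 fold change, test score, p-value and adjusted p-value per gene. The deposited ATAC-seq table gives whole-number counts per peak and library, a log2 ratio and a −log10 p-value, and lists peaks with −log10 p of at least 2.00 and absolute log2 ratio of at least 0.50. The deposited ChIP-seq tables give log2 mean normalized reads per age, their log2 difference, p-value and FDR per merged peak. The sign was turned to old over young here. Not given in the sources used here are the ChIP-seq normalization, the ATAC-seq peak caller and test, and any scaling of its counts.

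ATAC-seq counts were tested with edgeR 4.0.16 in R 4.3.3 (quasi-likelihood F-test, two-sided, equal library sizes, filterByExpr, which removed 0 peaks, Benjamini-Hochberg over all listed peaks). The code was tested on simulated data without a shared shift between the ages, so that check does not bear on the choice of scaling. DESeq2 1.42.0, other scalings, left-out libraries and other thresholds were alternatives. The threshold was 0.05 throughout. Replicate numbers did not pair young with old libraries. The 28 pairs of ATAC-seq libraries all differed by more than sampling noise (lowest chi-square per degree of freedom 10.8). Reads per kb are 2 to the power of the deposited log2 level, divided by peak width. Gene starts came from the deposited tables and RefSeq GRCm38.p6, promoter sequences from RefSeq. Tables and figures were made with Python 3.11.15, numpy 2.4.6, pandas 2.3.3 and matplotlib 3.10.9. The 10 genes and all lists were chosen with earlier results of these data known. All 10 are named. Of the other 42 genes, those called in RNA or ATAC-seq and the 3 highest and 3 lowest called fold changes per ChIP-seq table are named. The use of the peak over each start, whatever its annotation, was chosen after seeing the data.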

Additional observations from a re-analysis of the deposited data

How the results depend on the processing

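The ATAC-seq count of called peaks at the genes was 2 of 4 without scaling. It was 1 with TMM scaling, 1 with scaling to totals over the listed peaks and 1 with DESeq2 and its own size factors, in each case the peak in Dnah2, higher in old cells. It was 0 at an FDR of 0.01, 4 at an FDR of 0.1, and from 0 to 2 when 1 library was left out. The Kmt2a peak changed sign, to 0.09 with TMM, 0.02 with totals and 0.08 with DESeq2 size factors. DESeq2 with size factors of 1 and the test without a filter kept the count of 2. Over all listed peaks, 3643 were called lower and 426 higher without scaling (4595 and 607 with DESeq2 and size factors of 1), 55 and 1088 with TMM, 80 and 1070 with totals, and 82 and 1082 with DESeq2 and its own size factors. Without single libraries, lower calls ran from 1409 to 3197 and higher calls from 141 to 373; 1409 and 141 are both without old replicate 3, and lower calls also fell by over 1.5 times without young replicate 3 (1846), young replicate 4 (2099) or old replicate 4 (1867).

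With the replicate number as a block (replicate block) 0 of the 4 peaks and 755 lower and 91 higher of all peaks were called, but same-numbered libraries did not deviate together (correlations −0.0266, −0.109, 0.0354 and −0.186), so they share only a number. The H3K27me3 overlap at Kmt2a gave a count of 1 with 1 bp and 0 with 50%. Counts of called H3K4me3 peaks (9 to 12, against 12) stayed within 1.5 times under the other thresholds and annotations. Called Pol2 peaks were 4, 3 at an FDR of 0.01 or with any promoter annotation, and 2 with only promoter peaks within 1 kb, an alternative chosen after seeing the data that leaves 3 peaks. At the genes 0 H3K27me3 peaks and 0 RNA genes were called under any of these alternatives. With 2 or 3 samples per age and only group means deposited, the ChIP-seq results could not be retested or run without single libraries.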
